A study of Mus musculus with 10 samples.

Results

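The genes described here are Creb1, Crem and Atf1, which encode the cAMP-responsive transcription factors of the CREB group, Crtc1, Crtc2 and Crtc3, which encode their coactivators, and Sik1, Sik2 and Sik3, which encode the salt-inducible kinases that hold those coactivators back. They were chosen by gene symbol, as 9 of the 27665 genes in the authors' table of islet RNA sequencing, and all 9 were among the 15104 genes with enough reads to be tested. The islets, the endocrine clusters of the pancreas, came from male C57BL/6J mice that were 8 to 10 weeks old and received 1 of 2 diets for 4 weeks. Western diet and standard chow had 5 mice each, with 1 library per mouse, and the labels name no transgene, deletion or drug in either group. Cage 3 held all 5 chow mice, while western diet mice came from cage 4 (4 mice) and cage 2 (1 mouse), so diet and cage cannot be told apart.

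Cyclic AMP activates protein kinase A (PKA), which phosphorylates CREB proteins already bound to DNA. The CRTC coactivators are kept in the cytoplasm while SIK kinases phosphorylate them, and they move to the nucleus and join CREB when PKA switches the SIKs off and the calcium-dependent phosphatase calcineurin removes the phosphates. In beta cells this route is known to respond to glucose and to incretin hormones such as GLP-1. Sik1 and Crem are known as targets of CREB as well as members of the pathway, since Sik1 feeds back on the coactivators and an internal promoter of Crem yields the short repressor ICER. RNA levels do not show phosphorylation or the place of a protein in the cell, which were not analysed here.

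Total counts were 16532518 to 23902681 per library. Levels are CPM, the usual counts of a gene relative to the library total, scaled with the TMM factors of edgeR. The 12 markers of endocrine cells, among them Ins2, Gcg and Sst, together took 26.8% to 30% of the signal on western diet and 26.1% to 29.1% on chow. Of these 12 genes Iapp rose (log2 fold change 0.19, edgeR adjusted p = 0.0193) and Slc30a8, a zinc transporter gene of insulin granules, fell (-0.27, 0.00452), while the other 10 were not called. The 12 acinar markers took 0.0795% to 0.58% on western diet and 0.0681% to 0.281% on chow, and of their 10 tested genes 0 were called by edgeR, 0 by DESeq2 and 0 by limma-voom, with 0 at an unadjusted edgeR p under 0.05. Of the markers of other cells, 2 of 6 tested duct genes, 1 of 7 endothelial genes, 1 of 7 macrophage genes and 1 of 6 stellate and fibroblast genes were called, all lower on western diet, which is 19.2% of the 26, against 5.5% of all genes tested. In such bulk samples fewer cells of a type and less RNA per cell cannot be told apart.

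Of the 3 SIK genes, Sik3 rose 1.18-fold on western diet, while Sik1 stood at 0.587 of its chow level with no overlap between the diets, although its test did not pass. Sik1 made up 50% of the SIK signal per length on chow and 33.7% on western diet. Crem and Sik2 were 1.28-fold and 1.23-fold higher in the mean and did not pass the test. Creb1, Atf1 and the 3 Crtc genes had log2 fold changes between -0.15 and 0.07, and none was called. With 1 of 9 genes called, against 10.8% of all genes tested (5.27% higher and 5.5% lower), the group as a whole was called at about the rate of the background.

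**Figure D1:**
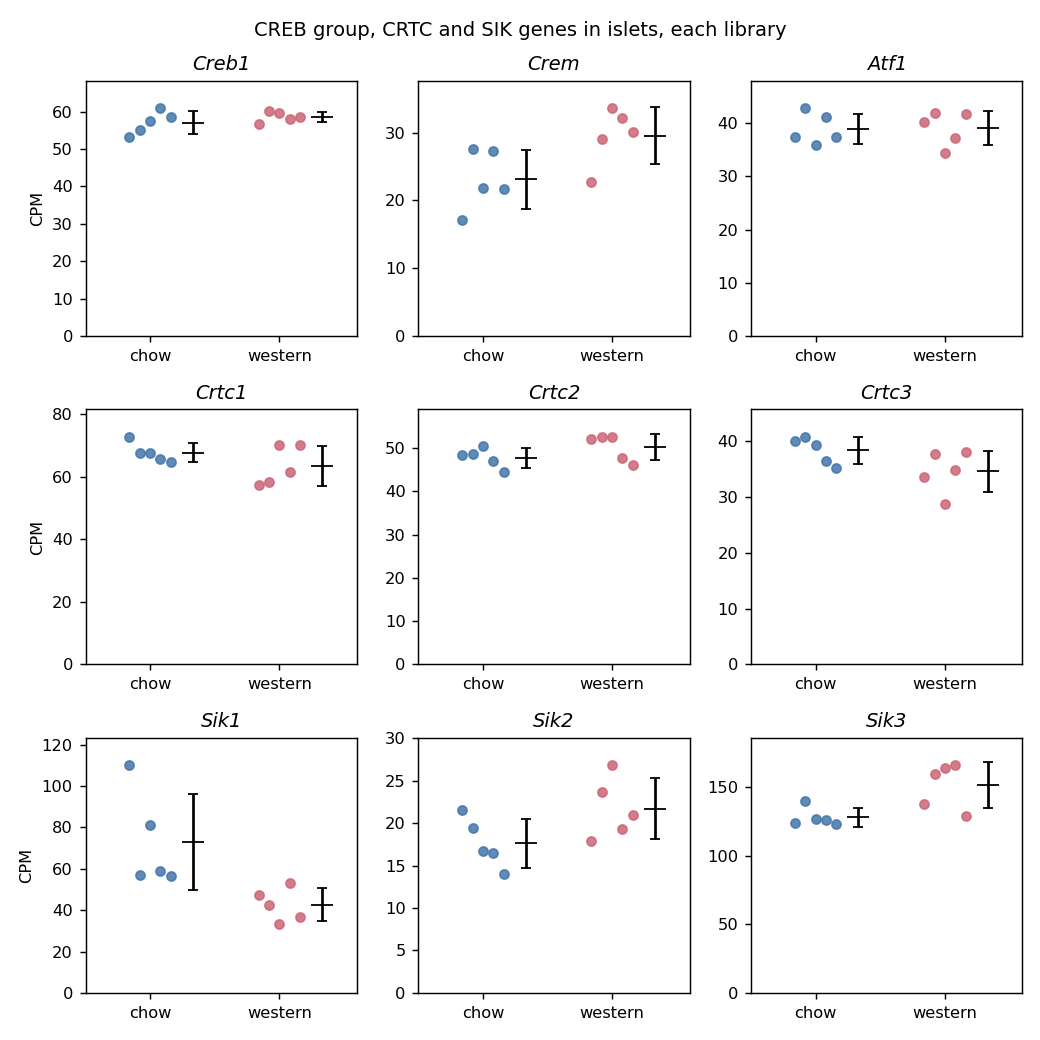
Level of each of the 9 genes in CPM (vertical axes, each starting at 0) in the 5 chow and 5 western diet libraries; points are libraries and the bar beside them is the mean with the SD. The western diet points of Sik1 all lie below its chow points, and no other gene separates the diets.

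Among the transcription factors, Creb1 (ENSMUSG00000025958, GRCm38 chromosome 1, 64532645 to 64604548), the founding member of the group, was the steadiest gene. It had 56.6, 60.1, 59.6, 58.1 and 58.6 CPM in the western diet libraries (cage 4 mice 1, 2, 5 and 4, then cage 2 mouse 5) and 53.3, 55.1, 57.6, 60.9 and 58.6 in the chow libraries of mice 1 to 5. The ranges overlapped, and the log2 fold change was 0.04 (95% interval -0.07 to 0.14, edgeR adjusted p = 0.681, here and below from its quasi-likelihood test with Benjamini-Hochberg adjustment). Its coefficient of variation on western diet was 2.34%, at percentile 3.06 of 6140 genes of like abundance, and 5.24% on chow, at percentile 32.3. Atf1 (ENSMUSG00000023027, chromosome 15, 100227819 to 100261244), which binds the same DNA element, had 34.4 to 41.9 CPM on western diet and 36 to 42.8 on chow (log2 fold change 0.01, interval -0.13 to 0.15, edgeR adjusted p = 0.964). The sign of the Atf1 difference turned under 11 of 21 alternatives, and no direction is given for it.

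Crem (ENSMUSG00000063889, chromosome 18, 3266048 to 3337748), which encodes both activators and repressors, was the transcription factor gene with the largest difference. The western diet libraries had 22.8 (cage 4 mouse 1), 29.1 (cage 4 mouse 2), 33.6 (cage 4 mouse 5), 32.2 (cage 4 mouse 4) and 30.1 CPM (cage 2 mouse 5). The chow libraries had 17.1, 27.6, 21.9, 27.3 and 21.7 CPM for mice 1 to 5. Of the western diet libraries 4 lay above every chow library, and cage 4 mouse 1 lay among the chow values. The means were 29.6 ± 4.15 and 23.1 ± 4.4 CPM (n = 5 each, SD), a log2 fold change of 0.35 ± 0.13 (SE, 95% interval 0.06 to 0.65) that was not called (edgeR adjusted p = 0.112). Of 21 alternatives 4 called it: DESeq2 (adjusted p = 0.0454), mouse number as a replicate block (0.0434), leaving out western diet cage 4 mouse 1 (0.0383), and the summed acinar markers as a covariate (0.0113). In the authors' deposited table the adjusted p of Crem is 0.0511.

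Crem levels moved with the acinar markers within each diet. Ordered by their summed acinar signal from 681 to 2810 CPM, the chow libraries of mice 1, 3, 5, 2 and 4 had 17.1, 21.9, 21.7, 27.6 and 27.3 CPM of Crem. On western diet the acinar sum ran from 795 CPM in cage 4 mouse 1, the library lowest in Crem, to 5800 in cage 4 mouse 5, the library highest in Crem. Between the diets the acinar sums overlapped, and with them as a covariate the log2 fold change of Crem was 0.35. The annotation lists 32 protein-coding transcripts of Crem with 21 different starts, and the gene counts add them up, so ICER was not measured apart. An antisense transcript of low abundance, Gm6225, shares 472 exon bases with Crem and had a mean of 53.6 counts against 512.3. The labels and processing notes do not state whether counting used strand, so reads of that stretch cannot be told apart.

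The CRTC coactivators differed little. Crtc1 (ENSMUSG00000003575, chromosome 8, 70382355 to 70439579), the form best known from neurons, had 57.4 to 70.2 CPM on western diet and 64.9 to 72.8 on chow (log2 fold change -0.09, interval -0.23 to 0.04, edgeR adjusted p = 0.361). Crtc2 (ENSMUSG00000027936, chromosome 3, 90254163 to 90264125), the form best studied in beta cells and liver, had 46.2 to 52.6 CPM on western diet and 44.4 to 50.5 on chow (0.07, interval -0.04 to 0.19, adjusted p = 0.43). Crtc3 (ENSMUSG00000030527, chromosome 7, 80586627 to 80688877) had 28.7 to 37.9 and 35.1 to 40.7 CPM (-0.15, interval -0.30 to 0.01, adjusted p = 0.205). The diets overlapped for all 3 genes, and the intervals allow at most a change of 0.30 in size on the log2 scale. None of the 3 was called under any of the 21 alternatives.

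Sik1 (ENSMUSG00000024042, chromosome 17, 31844248 to 31855792) encodes the SIK whose RNA is known to be induced by cAMP. The chow libraries of mice 1 to 5 had 110, 57.1, 81.2, 59 and 56.7 CPM. The western diet libraries had 47.2 (cage 4 mouse 1), 42.5 (cage 4 mouse 2), 33.3 (cage 4 mouse 5), 53.3 (cage 4 mouse 4) and 36.9 CPM (cage 2 mouse 5). All 5 western diet values lay below all 5 chow values and chow mouse 1 stood highest, while the gap between the lowest chow and the highest western diet library was small. Of the 9 members it was the only one separated, against 8.85% of all genes tested in either direction and 4.42% in this one.

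The Sik1 means were 42.7 ± 7.98 CPM on western diet and 72.7 ± 23.1 on chow (n = 5 each, SD). The log2 fold change was -0.77 ± 0.23 (SE, 95% interval -1.29 to -0.25) and was not called (edgeR unadjusted p = 0.00895, adjusted p = 0.0677). DESeq2 called it (adjusted p = 0.00877), as did edgeR without robust moderation (0.0135), and its adjusted p in the authors' deposited table is 0.01. Without chow mouse 1 the log2 fold change was -0.58 (edgeR adjusted p = 0.0805). Over all 21 alternatives it lay between -0.87 and -0.52 and 2 called it, with adjusted p from 0.00877 to 0.136. Ordered by acinar sum from 681 to 2810 CPM, the chow libraries of mice 1, 3, 5, 2 and 4 had 110, 81.2, 56.7, 57.1 and 59 CPM of Sik1. On western diet, ordered from 795 to 5800 CPM, cage 4 mouse 1, cage 2 mouse 5 and cage 4 mice 2, 4 and 5 had 47.2, 36.9, 42.5, 53.3 and 33.3, with no single direction. With the acinar sum as a covariate the log2 fold change was -0.73 (edgeR adjusted p = 0.0661). The coefficient of variation of Sik1 on chow was 31.7%, at percentile 99.5 of genes of like abundance, and 18.7% on western diet, at percentile 98.1.

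Sik3 (ENSMUSG00000034135, chromosome 9, 46012820 to 46224194), the most abundant member, was the only one called. Its western diet libraries had 138 (cage 4 mouse 1), 160 (cage 4 mouse 2), 164 (cage 4 mouse 5), 166 (cage 4 mouse 4) and 129 CPM (cage 2 mouse 5). The chow libraries of mice 1 to 5 had 124, 140, 127, 126 and 123 CPM. Of the western diet libraries 3, all of cage 4, lay above every chow library, while cage 4 mouse 1 and the mouse of cage 2 lay among the chow values. The means were 151.5 ± 17 and 128 ± 7.04 CPM (n = 5 each, SD), a log2 fold change of 0.24 ± 0.07 (SE, 95% interval 0.10 to 0.38, edgeR adjusted p = 0.0299).

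Sik3 no longer passed when cage 4 mouse 2 (edgeR adjusted p = 0.0706), 5 (0.0786) or 4 (0.0862) of western diet was removed, or chow mouse 1 (0.0827), 3 (0.0687), 4 (0.0618) or 5 (0.0629). Nor did it with mouse number as a replicate block (0.0648), and its log2 fold change lay between 0.20 and 0.30 over the 21 alternatives. In the authors' deposited table its adjusted p is 0.0143. In simulated counts for this comparison the test recovered 13 of 50 genes changed 1.25-fold and 38 of 50 changed 1.5-fold. Those were random genes of at least 5 CPM, so the rates are not those of Sik3, Crem or Sik2 themselves. The simulation left 14713 of 14913 genes unchanged, while 10.8% of genes tested were called in the data, so its adjustment was stricter. Its spread between libraries was estimated without regard to diet, so differences between the diets added to it. The rates are thus not the power of the real comparison. The coefficients of variation of Crem lay at percentiles 94.7 on western diet and 97.9 on chow of genes of like abundance. Those of Sik2 lay at 97.1 and 96.2, and those of Sik3 at 87.6 and 35.8.

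Sik2 (ENSMUSG00000037112, chromosome 9, 50892801 to 51009073), a form studied in fat and beta cells, was the least abundant member. It had 17.9, 23.6, 26.8, 19.3 and 20.9 CPM on western diet (cage 4 mice 1, 2, 5 and 4, then cage 2 mouse 5) and 21.5, 19.4, 16.7, 16.5 and 14 on chow. The diets overlapped, with 2 western diet libraries above every chow library, and the log2 fold change of 0.30 ± 0.12 (SE, interval 0.04 to 0.56) was not called (edgeR adjusted p = 0.13). Sik2 lies 4668607 bases from Sik3. It shares 1429 exon bases with Ppp2r1b on the opposite strand, which had a mean of 794 counts against 381 for Sik2. Whether counting used strand is not stated by the labels or the processing notes, so reads of the shared stretch cannot be told apart.

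**Figure D2:**
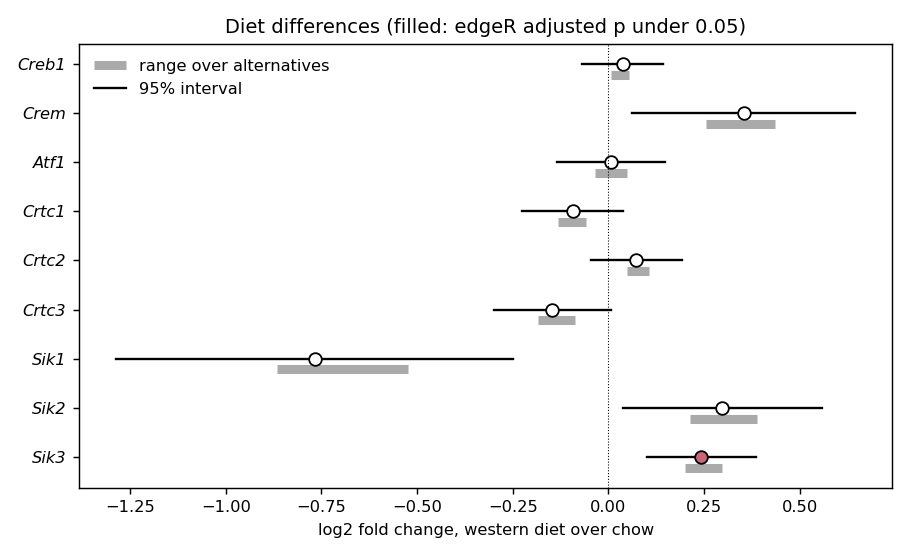
Log2 fold change of each gene, western diet over chow (horizontal axis), with its 95% interval (line) and the range over 21 alternative analyses (grey bar). Sik3 is filled because its adjusted p was under 0.05, and the intervals of Sik1, Sik2 and Crem exclude 0 before adjustment.

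Levels were compared between genes per kb of the gene length in the table. Over the 10 libraries the mean was 15 CPM per kb for Sik3, 12.8 for Sik1, 12.8 for Atf1, 12 for Crtc2, 5.87 for Crtc1, 4.47 for Crem, 4.21 for Creb1, 3.69 for Crtc3 and 2.06 for Sik2. Among all genes tested these means spanned percentiles 34.2 (Sik2) to 82.4 (Sik3). The ranges of most neighbours in this order overlapped, and 2 steps did not overlap: Crtc2 lay above Crtc1 in every library (lowest 10.8 against highest 6.51), as did Crtc3 above Sik2 (lowest 2.91 against highest 2.8). The better known Creb1 was thus at 4.15 ± 0.218 CPM per kb on chow and Atf1 at 12.7 ± 0.935 (SD, n = 5). The length counts every annotated exon, 13742 bases for Creb1 and 3060 for Atf1, so a gene whose long forms are little used appears lower per kb. For Sik1 the table gives 4511 bases and the GENCODE M21 annotation 5133. The longer one would lower its level per kb, so its place in this order depends on the length used.

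**Figure D3:**
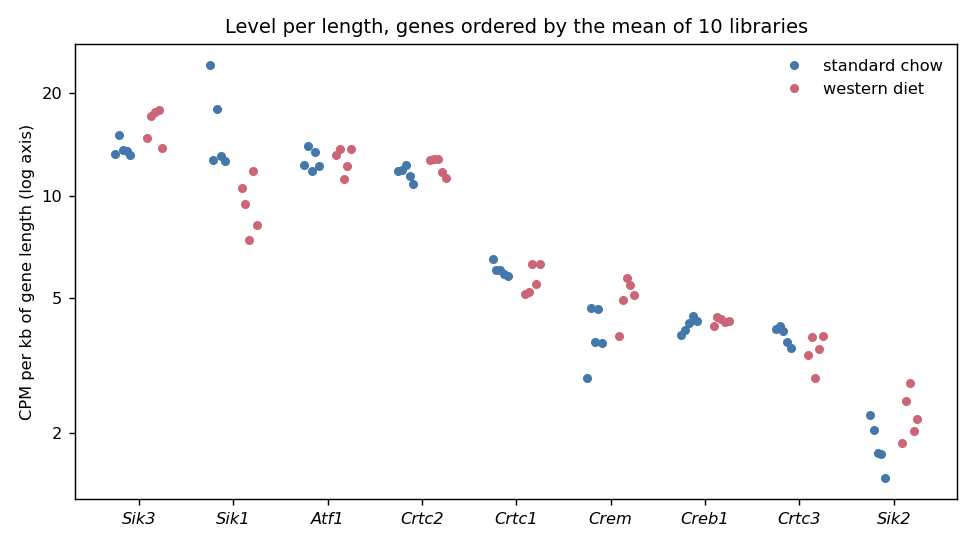
CPM per kb of gene length (vertical log axis) for the 9 genes, ordered by their mean, with 1 point per library. Sik3, Sik1, Atf1 and Crtc2 form an upper group, and Sik1 is the gene whose position in it differs most between chow (12.6 to 24.3) and western diet (7.38 to 11.8).

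Within a library, the share of each gene in the summed signal per length of its family does not depend on how the library is scaled. Sik1 held 61.1%, 42.5%, 53.9%, 46.2% and 46% of the SIK signal in chow mice 1 to 5, and 26.5% to 38.6% on western diet. Sik3 held 33.3% to 50.6% on chow and 54.5% to 63.4% on western diet, and both genes separated the diets fully (exact permutation test, two-sided, n = 5 each; each p = 0.00794, which is the least that 5 against 5 can give, and 0.0357 adjusted over 9 shares). The Sik2 share was 8.19% ± 1.53 against 5.85% ± 0.647 (n = 5 each, SD; exact two-sided permutation p = 0.0159, adjusted 0.0476). Shares in a family sum to 100%, so these 3 tests are not independent.

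The summed SIK signal itself overlapped between the diets, at 24.2 to 31.7 CPM per kb on western diet and 27.3 to 39.8 on chow. Without western diet cage 4 mouse 5 the differences in the Sik1 and Sik3 shares were -14.4 and 12.6 points, against -16.2 and 13.9 with it. Their adjusted p was then 0.0714, as was that of Sik2, but with 4 against 5 the exact permutation test cannot give a p below 0.0159. The Sik2 call was lost without any 1 of the 5 chow mice too (adjusted p of 0.0714 to 0.143) and with raw counts not scaled by length (0.1). Among the transcription factors Atf1 held most of the signal, 57.9% ± 3.69 on western diet and 61.3% ± 1.94 on chow, and the share of Crem was 22.7% ± 3.29 against 18.7% ± 2.21 (n = 5 each, SD; exact two-sided permutation p = 0.0476, adjusted 0.0833). Without western diet cage 4 mouse 1 the Crem and Atf1 shares passed, at 5.15 and -4.43 points (both adjusted p = 0.0179). Crtc2 held 57.2% ± 2.81 of the CRTC signal against 54% ± 0.876 on chow (n = 5 each, SD; exact two-sided permutation p = 0.0556, adjusted 0.0833). Without the western diet mouse of cage 2 the Crtc2 and Crtc3 shares passed, at 4.34 and -2.03 points (both adjusted p = 0.0357).

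**Figure D4:**
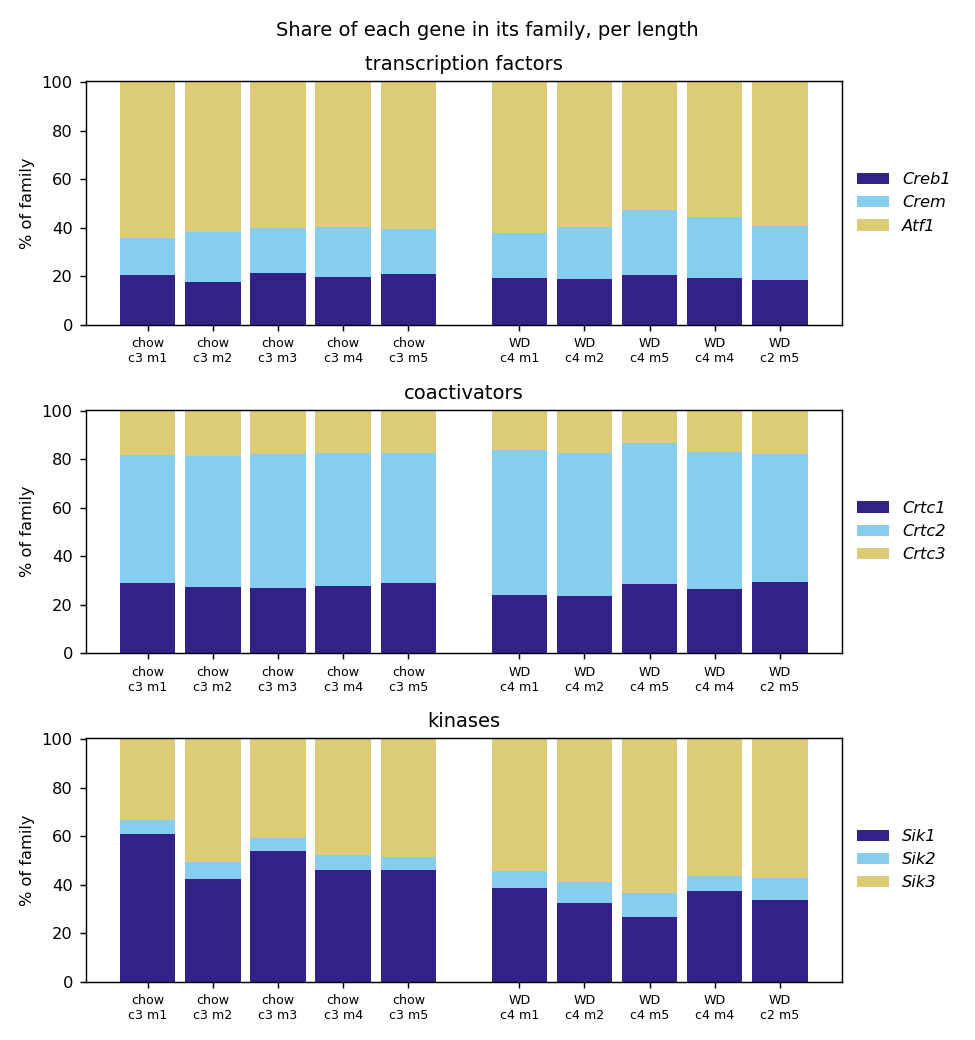
Share of each gene in the summed CPM per kb of its family (vertical axis, percent), 1 bar per library, chow at the left and western diet (WD) at the right, with cage (c) and mouse (m) numbers. In the kinase panel the Sik1 share is at least 42.5% in every chow bar and at most 38.6% in every western diet bar.

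The genes that make, break down and sense cAMP, act on SIK and CRTC proteins or are close relatives of these families were examined as 7 lists. Of 84 such genes tested, edgeR called 0 higher and 3 lower, which is 3.57% against 10.8% of all genes tested. DESeq2 called 0 of them higher and 6 lower, against 15.2% of all genes it gave an adjusted p, and limma-voom 0 and 3, against 10.1%. The lists' median log2 fold changes lay between -0.08 and 0.02, against 0.01 over all genes tested. The 3 genes called were Ywhaz, Ep300 and Atf7. Unadjusted p-values under 0.05 were common over all 15104 genes tested. Ordered by edgeR p, Sik2 at an unadjusted 0.0277 ranked 3221 and Crtc3 at 0.0592 ranked 4361. The counts of such p-values in single lists are therefore descriptions, not signs of a change.

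Among genes of cAMP production 0 of 12 were called by edgeR, 0 by DESeq2 and 0 by limma-voom, with 2 at an unadjusted edgeR p under 0.05. Those with the smallest p-values were the G protein subunit gene Gnai2 (log2 fold change -0.12, edgeR adjusted p = 0.224) and the adenylyl cyclase genes Adcy1 (0.54, 0.159), Adcy2 (-0.79, 0.157), Adcy8 (-0.57, 0.19), Adcy7 (0.52, 0.384) and Adcy9 (0.06, 0.478). Apart from Gnai2 and Adcy9 these were low, under 5 CPM. Among phosphodiesterase genes, which break down cAMP, 0 of 14 were called by edgeR, 0 by DESeq2 and 0 by limma-voom, with 1 at an unadjusted edgeR p under 0.05. Pde1c had -0.28 (edgeR adjusted p = 0.077), Pde8b -0.46 (0.296), Pde4a 0.15 (0.422) and the abundant Pde3b -0.04 (0.621), while Pde3a (-0.08, 0.749) and Pde4b (0.07, 0.749) turned sign under some alternatives.

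Of 17 cAMP effector genes edgeR called 0 (6 at an unadjusted p under 0.05), limma-voom 0 and DESeq2 1, Akap9, which it found lower. Akap9 passed under 4 of 21 alternatives, DESeq2 among them. The anchoring protein genes Akap9 (-0.15, edgeR adjusted p = 0.0592), Akap10 (-0.13, 0.131) and Akap11 (-0.12, 0.111), the PKA inhibitor genes Pkia (-0.19, 0.0936) and Pkig (0.15, 0.162), and the PKA regulatory subunit gene Prkar2a (0.15, 0.152) came nearest. In the list upstream of SIK and CRTC, Ywhaz, which encodes a 14-3-3 protein of the kind that binds phosphorylated CRTC, fell from 348 ± 58.6 to 247 ± 31.2 CPM (n = 5 each, SD, -0.50, edgeR adjusted p = 0.0299). Ywhaz no longer passed once cage 4 mouse 5 (0.0537), cage 4 mouse 4 (0.0735), cage 2 mouse 5 (0.0555) or chow mouse 3 (0.0636) was removed, or with no filter on low counts (0.0733), while its log2 fold change stayed between -0.50 and -0.44. The other 18 genes of that list were not called, with Stradb, a partner of the SIK-activating kinase LKB1, at 0.32 (edgeR adjusted p = 0.0626), the calcineurin subunit gene Ppp3r1 at 0.12 (0.0998), and the 14-3-3 genes Ywhab at 0.11 (0.162), Ywhag at 0.12 (0.144) and Sfn at -0.66 (0.13).

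Of the 11 other kinase genes of the LKB1 and AMPK group edgeR called 0 (3 at an unadjusted p under 0.05), limma-voom 0 and DESeq2 2, both lower, and 8 had log2 fold changes below 0. Nuak2 (-0.29, edgeR adjusted p = 0.0579) and Nuak1 (-0.30, 0.0913) had the largest differences, then Brsk1 (0.18, 0.139), Brsk2 (-0.13, 0.206), Mark3 (-0.10, 0.241) and the AMPK subunit gene Prkaa1 (-0.08, 0.33). Nuak2 was called under 7 of 21 alternatives and Nuak1 under 2. The summed level of the 11 genes did not overlap between the diets, 542 to 568 CPM on western diet and 575 to 596 on chow. The sums of the lists of cAMP production, breakdown and effectors, upstream of SIK and CRTC, CREB coactivators and CREB relatives overlapped. Of single genes tested 4.42% had no overlap in this direction. No such share was computed for sums of lists, so a fall of the group was not tested. Among CREB coactivators and SIK substrates 1 of 8 was called: Ep300, which encodes the acetyltransferase p300, fell from 145 ± 6.09 to 128 ± 5.75 CPM (n = 5 each, SD, -0.19, edgeR adjusted p = 0.0192), which did not pass after cage 4 mouse 2 of western diet was removed (0.0535) or with the replicate block (0.0835). Its relative Crebbp (-0.18, 0.099), the Mediator subunit gene Med15 (0.10, 0.219) and the class IIa histone deacetylase genes Hdac5 (-0.15, 0.28), Hdac7 (-0.12, 0.407) and Hdac9 (0.28, 0.208) were not called.

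Among the 4 tested relatives of the CREB group, Atf7 fell from 42.9 ± 4.1 to 34.7 ± 2.4 CPM (n = 5 each, SD, -0.30, edgeR adjusted p = 0.0105, and 0.0623 with the replicate block). Crebl2 (0.14, edgeR adjusted p = 0.122), Crebzf (0.04, 0.632) and Atf2 (-0.01, 0.924) were not called, and Atf2 turned sign under 3 alternatives.

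Known targets of cAMP and CREB formed a further list. Of 22 tested, 10 fell and 1 rose, which is 50% called against 10.8% of all genes, and the median log2 fold change was -0.495. This list was chosen with earlier results of these data known, and most of its genes also answer to other stimuli, so the count is a description. The immediate early transcription factor genes Egr1 (-0.68, edgeR adjusted p = 1.84e-06), Npas4 (-1.58, 3.81e-05), Fos (-0.47, 2.66e-04), Junb (-0.55, 5.81e-04) and Nr4a1 (-0.90, 0.0134) fell, as did the phosphatase gene Dusp1 (-0.67, 7.49e-06). Each of these 6 genes had no overlap between the diets, against 4.42% of all genes tested in this direction. They are the 6 with the smallest p-values of the list, so this follows largely from how they were picked.

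The other called targets are named after their values were seen. Atf3 (-1.20, edgeR adjusted p = 0.021), Fosb (-0.85, 0.0135), the small GTPase gene Gem (-0.88, 0.0461) and Irs2 (-0.52, 0.0305) fell. Irs2, which encodes an insulin receptor substrate and is a well known CREB target of beta cells, fell from 543 ± 45.7 to 379 ± 71 CPM (n = 5 each, SD). Ppargc1a, which encodes the coactivator PGC-1 alpha, rose from 5.62 ± 0.587 to 8.18 ± 1.3 CPM (n = 5 each, SD, 0.54, edgeR adjusted p = 0.0144, and 0.0649 with the replicate block).

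Some of these calls were near the threshold, and their fold changes moved little when it was missed. Irs2 did not pass after removal of cage 4 mouse 1 (edgeR adjusted p = 0.0596) or 5 (0.0711) of western diet or of chow mouse 1 (0.0747), 2 (0.0642) or 3 (0.0589), nor with no filter on low counts (0.0694), at log2 fold changes of -0.54 to -0.48. The Gem call was lost under 11 of 21 alternatives, with every mouse of western diet but cage 4 mouse 2 and every chow mouse but mouse 5 among those whose removal ended it (edgeR adjusted p of 0.0553 to 0.1, log2 fold changes of -0.98 to -0.76). Atf3 did not pass after removal of cage 4 mouse 5 of western diet (0.0526) or chow mouse 1 (0.0524), at -1.12 and -1.13.

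Targets that were not called include the neuropeptide gene Sst, a classical model target of CREB, at 2080 ± 119 CPM on western diet and 2090 ± 200 on chow (n = 5 each, SD, edgeR adjusted p = 0.974). Rgs2, Nr4a2, Per1, Per2, Nfil3, Pde4d, Pde10a, Bdnf and Nr4a3 were not called either, at log2 fold changes of 0.43, 0.08, -0.62, -0.20, -0.37, -0.05, -0.14, 0.20 and -0.79, nor was Pde4b, which is also in the phosphodiesterase list. Summed over the list, targets had 10100 to 12100 CPM on western diet and 14700 to 17800 on chow. Ordered by this sum from 17800 to 14700 CPM, chow mice 1, 3, 2, 4 and 5 had 110, 81.2, 57.1, 59 and 56.7 CPM of Sik1. On western diet the order was cage 4 mice 2, 1, 4 and 5, then cage 2 mouse 5, with sums from 12100 to 10100 CPM. These had 42.5, 47.2, 53.3, 33.3 and 36.9 CPM of Sik1.

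Other immediate early genes, with 3 inducible heat shock chaperone genes, formed another list, chosen in the same way: 11 of 16 fell, 0 rose, which is 68.8% called against 10.8% of all genes, and their sum was 3390 to 4170 CPM on western diet and 6990 to 8200 on chow. The 6 with the smallest p-values were Jun (-1.02), Dnajb1 (-1.77), Ier2 (-0.59), Btg2 (-0.48), Hspa1a (-3.05) and Hspa1b (-3.16). The 3 chaperone genes Hspa1a, Hspa1b and Dnajb1 together had 291 to 425 CPM on western diet and 1540 to 2330 on chow, and without them 8 of 13 genes fell, with sums of 3030 to 3750 and 5320 to 6050 CPM. Hspa1a and Hspa1b are near-identical copies, so the split of their reads is uncertain. The part of this response in the Sik1 difference was not tested.

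**Figure D5:**
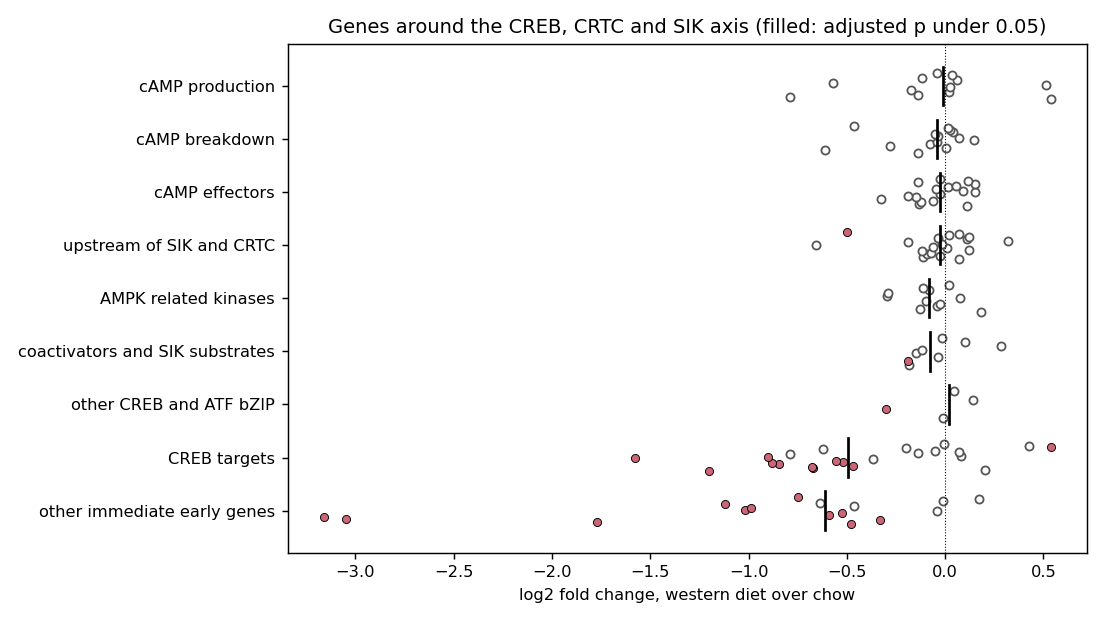
Log2 fold change, western diet over chow (horizontal axis), of every tested gene in 9 lists around the pathway; 1 point per gene, filled where the adjusted p was under 0.05, and a vertical bar for the list median. The medians of the CREB targets (-0.495) and the other immediate early genes (-0.61) lie apart from the medians of the 7 lists above them, which are near 0.

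CREB binds the cAMP response element, whose core is TGACG, which appears on the opposite strand as CGTCA, and whose full palindrome is TGACGTCA, which holds the core on each strand. Both were searched on both strands in RefSeq promoter windows of GRCm38.p6, from 250 bases before to 50 after each start. Of 27025 genes with a window 23% held the core and 2.03% the palindrome, and of 11032 that were also tested 34.8% and 3.64%. Among the members 6 matched (not Sik1, Crem or Crtc2) and 3 held the core: Sik3 with 3 copies, Atf1 with 1 and Sik2 with 2, which begin at and just after its start. The windows of Creb1, Crtc1 and Crtc3 did not hold these letters. Among CREB targets 16 of 19 with a window held the core, 7 of 8 that fell and 8 of 10 that were not called. Since the targets were listed for their response to cAMP, this share is no independent result.

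The stretches around the core are shown for the called member Sik3 and for Atf1, beside the targets Nr4a1, Fos and Dusp1, which fell, and Sst, which was not called. Capitals mark each copy of the core or palindrome. The sequences read 5′ to 3′ on the strand of the gene and end before its start: Sik3 at chr9:46012647-46012807 (+), Atf1 at chr15:100227729-100227813 (+), Nr4a1 at chr15:101266596-101266845 (+), Fos at chr12:85473721-85473868 (+), Dusp1 at chr17:26508568-26508703 (-) and Sst at chr16:23890845-23890932 (-).
Sik3: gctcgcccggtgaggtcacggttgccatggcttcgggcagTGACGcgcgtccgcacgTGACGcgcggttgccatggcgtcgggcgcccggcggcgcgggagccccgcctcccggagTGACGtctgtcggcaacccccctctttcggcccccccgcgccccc
Atf1: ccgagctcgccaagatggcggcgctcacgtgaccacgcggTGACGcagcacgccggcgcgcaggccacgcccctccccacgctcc
Nr4a1: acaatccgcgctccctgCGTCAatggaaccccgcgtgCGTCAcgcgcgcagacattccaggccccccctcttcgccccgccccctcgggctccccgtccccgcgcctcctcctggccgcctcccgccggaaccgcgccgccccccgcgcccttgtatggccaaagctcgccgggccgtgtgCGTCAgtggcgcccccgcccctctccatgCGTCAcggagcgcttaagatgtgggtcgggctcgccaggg
Fos: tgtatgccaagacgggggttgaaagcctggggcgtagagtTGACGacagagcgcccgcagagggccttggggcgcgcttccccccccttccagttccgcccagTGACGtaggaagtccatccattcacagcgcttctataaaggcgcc
Dusp1: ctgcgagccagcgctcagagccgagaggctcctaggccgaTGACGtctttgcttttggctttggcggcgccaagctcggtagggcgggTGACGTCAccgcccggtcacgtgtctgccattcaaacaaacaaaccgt
Sst: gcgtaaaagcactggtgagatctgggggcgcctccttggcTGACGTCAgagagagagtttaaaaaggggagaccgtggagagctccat

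The core nearest to the start lay 53 bases before it in Sik3, 86 in Atf1, 36 in Nr4a1, 62 in Fos, 136 in Dusp1 and 41 in Sst. Dusp1 and Sst both hold the palindrome, and the first had a log2 fold change of -0.67 and the second of -0.0042. The 3 copies in Sik3 all read TGACG on the strand of the gene. A match shows only that these letters are present.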

How the data were processed

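RNA sequencing of 10 islet libraries was analysed from 1 table of 27665 genes deposited by the authors. The read counts in it are whole numbers, not normalized, per the file headers. The same table holds the authors' FPKM, log2 fold changes and p-values, and per the submitters' processing notes STAR 2.5, HTSeq 2, DESeq2 and the builds mm10 and GRCm38 were used, with no order given. Libraries were made with the NEBNext Ultra kit, per the labels' protocols. A further 10 columns of normalized values were not used.

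The test on counts was that of edgeR 4.0.16 (R 4.3.3): filterByExpr with a minimum count of 10, TMM factors, a robust quasi-likelihood fit of diet with no covariate, and Benjamini-Hochberg adjustment over 15104 genes, called at an adjusted p under 0.05. The SE was taken as the size of the log2 change over the square root of F, and intervals are 95%. The 9 family shares were compared with two-sided exact permutation tests, in which 5 against 5 cannot go below 0.00794. A simulation over 14913 genes recovered 49 of 50 genes changed 2-fold and called 9 of 14713 unchanged genes. Fewer genes were changed in it than were called in the data, so these rates are those of the simulation only. The p-values measure the spread between mice, and counting error is part of it.

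Named were all members, up to 6 genes of each of 9 pathway lists by p, those of at least 1 CPM first, and 3 genes per member by likeness, of which 1 is not reported here. The members and lists were chosen with earlier results of these data known. Alternatives were other scalings and filters, DESeq2 1.42.0, limma-voom (limma 3.58.1), no robust moderation, a replicate block by mouse number, leaving out mice and, for the shares, the authors' FPKM or raw counts. The acinar covariate was chosen after seeing the data. Overlaps with other genes and transcripts come from GENCODE M21 (GRCm38), and gene names and coordinates from the table. The GENCODE span of Sik1 differs from the one in the table, with 5133 exon bases against a length of 4511. The Sik1 levels per kb and shares use 4511 and would be lower with 5133. From raw counts not scaled by length, its share differed by -13 points (exact two-sided permutation test, adjusted p = 0.0357).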

Additional observations from a re-analysis of the deposited data

Results flagged for a closer look

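On chow, the Sik3 level of mouse 2 stood apart from the other 4 libraries. It was 140 CPM against 123 to 127 CPM, and the gap to the next library was 0.779 of the whole range, above the critical value of 0.71 for 5 samples. Of 18 groups examined, this was the only one to pass, and chance gives about 1 in 20. Without this mouse the log2 fold change of Sik3 was 0.28 (edgeR adjusted p = 0.0186), against 0.24 with it.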

How the results depend on the processing

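Creb1, the 3 Crtc genes and Sik2 were called under none of the 21 alternatives, and Crem, Sik1, Sik2 and Sik3 kept their direction in all of them. The number of members called higher, 1 in the main analysis, was 2 with DESeq2, 2 with the acinar covariate and 0 to 2 when 1 mouse was left out. The number called lower, 0 with 1 gene (Sik1) under an unadjusted edgeR p of 0.05, was 1 with DESeq2 and 1 without robust moderation. Pathway genes called higher numbered 1, and 0 with the replicate block, 2 without the western diet mouse of cage 2 and chow mouse 1 together, and 1 to 2 when 1 mouse was left out. Pathway genes called lower numbered 24, and 18 to 24 when 1 mouse was left out. Some named pathway genes that the main analysis did not call passed under alternatives. Nuak2 did so under 7, Akap9 under 4, Nuak1 and Pde1c under 2 each, and Adcy1, Pkia, Brsk1 and Hdac5 under 1 each. Of the 9 family shares 3 passed, and 0 to 5 when 1 mouse was left out: 0 without western diet cage 4 mouse 5, and 5 without cage 4 mouse 1 or without the mouse of cage 2. Leaving out 1 mouse raises the smallest p of the exact permutation test from 0.00794 to 0.0159. This floor can lower the count of shares that pass but cannot raise it, so a fall in the count alone does not show that a share is unstable. The full separation of the Sik1 and Sik3 shares cannot speak for stability, because removing a mouse from groups that do not overlap cannot make them overlap. The cause of the other changes was not tested.

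Differences near 0 turned sign. The log2 fold change of Atf1 was -0.0051 with upper quartile factors, -0.0075 with total counts, -0.013 with a minimum of 5 CPM, -0.0070 with the replicate block, -0.034 without the western diet mouse of cage 2 and chow mouse 1, and -0.027 to 0.050 when 1 mouse was left out. That of Atf2 was 0.00076 with the replicate block and up to 0.010 when 1 mouse was left out, against -0.045 at the lowest. Pde4b was -0.032 without those 2 mice and -0.047 to 0.14 when 1 mouse was left out, and Pde3a -0.18 to 0.024 then.

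The mouse numbers are given within cages, and deviations of same-numbered mice correlated at 0.028, 0.038, 0.076, 0.11 and -0.13 over 10697 genes, so the numbers were not taken to pair the mice. With the mouse number as a replicate block 342 genes were called higher and 499 lower over the whole table, against 796 and 831. Among the named genes the block called Crem, ended the calls of Sik3, Ep300, Atf7 and Ppargc1a, with the values given above, and changed no other call. Leaving out 1 mouse gave 376 to 921 genes higher and 562 to 892 lower. The least sure depth was for Sik2, with 277 to 501 counts per library.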

Other observations

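Between mice of the same diet, each member was compared with 10179 protein-coding genes of at least 5 CPM, as the correlation of log2 CPM after the mean of each diet was subtracted. These 10 libraries share their depth and their make-up of cells, and so many genes were compared that high values are found for every member, so the values are descriptions with no p. The genes most like Sik3 were Dhodh (Pearson r = 0.965, Spearman rho = 0.927), a pyrimidine synthesis gene, and the clock repressor gene Cry1 (r = 0.947, rho = 0.952). Cry1 had a log2 fold change of 0.51 between the diets (edgeR adjusted p = 0.0511) and was not called. The genes most like Sik1 were Midn (r = 0.96), Zbtb2 (r = 0.942) and Gprasp2 (r = 0.916). Midn and Zbtb2 fell on western diet, with log2 fold changes of -0.42 (edgeR adjusted p = 0.00287) and -0.67 (6.85e-04).

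For the other members the closest genes were Extl3, Zdhhc24 and Shtn1 for Creb1 (r = 0.941, 0.935 and 0.933), Mrpl57, Kcna2 and Ick for Crem (0.93, 0.929 and 0.924) and Prdx2, Ube2e1 and Cd99l2 for Atf1 (0.964, 0.937 and 0.936). Those of the coactivators were mt-Cytb, Fbf1 and Mical2 for Crtc1 (0.971, 0.963 and 0.955), Mllt3, Kat8 and Eif4ebp1 for Crtc2 (0.943, 0.931 and 0.918) and Selenoo, Emc1 and Cops3 for Crtc3 (0.928, 0.925 and 0.923). Those of Sik2 were Nbea, Relt and Dip2b (0.933, 0.931 and 0.915).

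Among the 36 pairs of members the correlations were lower. The highest was Atf1 with Crtc3 (r = 0.651, rho = 0.661), and the lowest was Crem with Sik1 (r = -0.687, rho = -0.527), which was -0.847 within chow and -0.369 within western diet. The signal of the acinar markers, which differed between these libraries as described for Crem, lies beside that pair, and its part in it was not tested.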
